A study of Mus musculus with 3 samples.

Results

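The genes described here are 51 genes of DNA replication and cell division, listed by name, out of 55450 annotated mouse genes. Of them, 31 act in replication, 5 control the passage from G1 into S phase and 15 act in mitosis or on the way to it. The list was drawn up by gene function, but with earlier results of these data known. Every symbol had a row in the gene tables of all 3 libraries. All 51 had a mean count of at least 10 over the libraries, as did 15874 genes in all.

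The study sequenced total RNA, after removal of ribosomal RNA, from nuclei of bone marrow-derived macrophages, primary phagocytes grown in culture from marrow precursors of C57BL/6J mice. The cells of all 3 biological replicates had been treated for 15 min with Lipid A at 100 ng/ml, the lipopolysaccharide part that the receptor Tlr4 senses. No untreated sample is among those analysed here, so no value below is a response to Lipid A. Replicates 1 and 3 were made from 1 µg of RNA and replicate 2 from 500 ng, and age and sex were not collected. The labels record the same donor entry for every replicate, and whether technical or biological differences separate the replicates was not tested. They name the fraction nuclear in one place and nucleoplasmic in another.

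In a dividing cell, Cdc6 and Cdt1 load the ring of Mcm2 to Mcm7 onto replication origins in G1, and cyclin-dependent kinases then start the ring as the helicase of the fork. E2F factors switch on the genes of replication around the entry into S phase. The genes of mitosis are transcribed later, in G2 and M, through promoters that often hold CCAAT motifs and a cell cycle homology region, CHR, bound by the DREAM and MuvB complexes. Macrophages grown from marrow can divide in culture, and they leave the cycle as they mature.

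The promoters below are shown because the replication and mitotic genes hold these motifs in different shares, which are given after them. They are RefSeq promoter sequences of build GRCm38.p6, read 5′ to 3′ on the gene's own strand, with bases of the gene's annotated exons left out. Capitals mark every match to an E2F motif (TTTCCCGC, TTTCGCGC, TTTGCCGC or TTTGGCGC), to the CHR motif TTTGAA or to CCAAT, on either strand, where E2F forms on opposite strands can overlap. Uhrf1 (chr17:56303087-56303320, plus strand) and Cdc6 (chr11:98907982-98908150, plus strand) are the replication genes with a promoter in the table that stood highest in replicate 1. Top2a (chr11:99024190-99024439, minus strand) and Mki67 (chr7:135716380-135716629, minus strand) are the mitotic genes with the highest mean TPM. Mcm6 (chr1:128359706-128359955, minus strand) and Ccnb2 (chr9:70421555-70421804, minus strand) were added after their values were seen. The Cdc6 stretch lies in the first intron of the transcript Cdc6-201, since the RefSeq start is 350 bases away from that of the annotation.
Uhrf1: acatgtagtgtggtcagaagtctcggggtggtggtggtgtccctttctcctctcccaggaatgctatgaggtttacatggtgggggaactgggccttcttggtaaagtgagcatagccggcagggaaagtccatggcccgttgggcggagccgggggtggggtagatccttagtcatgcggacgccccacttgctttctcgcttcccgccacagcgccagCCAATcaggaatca
Cdc6: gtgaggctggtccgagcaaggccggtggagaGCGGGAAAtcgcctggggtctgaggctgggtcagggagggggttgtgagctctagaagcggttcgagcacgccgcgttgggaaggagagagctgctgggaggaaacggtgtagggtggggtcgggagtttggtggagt
Mcm6: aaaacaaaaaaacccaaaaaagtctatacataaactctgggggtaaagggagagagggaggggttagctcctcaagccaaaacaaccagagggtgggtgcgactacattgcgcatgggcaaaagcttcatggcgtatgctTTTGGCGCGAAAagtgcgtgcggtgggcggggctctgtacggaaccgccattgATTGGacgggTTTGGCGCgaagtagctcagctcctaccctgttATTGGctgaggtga
Top2a: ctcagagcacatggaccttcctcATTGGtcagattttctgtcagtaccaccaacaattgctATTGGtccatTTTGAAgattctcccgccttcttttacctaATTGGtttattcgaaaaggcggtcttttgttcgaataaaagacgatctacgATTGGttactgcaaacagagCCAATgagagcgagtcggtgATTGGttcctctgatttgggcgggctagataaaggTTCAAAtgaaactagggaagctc
Mki67: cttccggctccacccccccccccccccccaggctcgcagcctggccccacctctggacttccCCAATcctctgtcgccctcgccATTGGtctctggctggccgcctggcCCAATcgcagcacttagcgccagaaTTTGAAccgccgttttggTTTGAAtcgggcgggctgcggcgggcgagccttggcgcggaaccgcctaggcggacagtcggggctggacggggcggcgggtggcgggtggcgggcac
Ccnb2: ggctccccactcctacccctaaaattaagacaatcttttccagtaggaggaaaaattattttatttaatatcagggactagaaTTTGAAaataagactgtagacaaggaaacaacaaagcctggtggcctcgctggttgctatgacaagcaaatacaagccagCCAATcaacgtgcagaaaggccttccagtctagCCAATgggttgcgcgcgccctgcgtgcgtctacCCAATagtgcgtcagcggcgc
The Mcm6 stretch holds an overlapping pair of E2F motifs and a further match nearer the start, whereas Top2a and Mki67 hold 2 CHR motifs each.

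Of the 51 genes, 42 had a promoter in the table, and Gins1, Gins2, Aurkb, Ccnd1, Ccna2, Ccne2, Rfc2, Mcm4 and Pole had none. In the 250 bases before the start, an E2F motif stood in 6 of 26 replication genes (23.1%; Mcm5, Mcm6, Mcm7, Cdc6, Rfc3 and Pola1). It stood in 1 of 13 mitotic genes (7.69%; Cdk1) and in 1.86% of all 32851 promoters. The CHR motif stood in 6 of 13 mitotic genes (46.2%; Ccnb2, Cdk1, Cdc20, Kif11, Top2a and Mki67), 3 of 26 replication genes (11.5%) and 16% of all promoters. CCAAT stood in 12 of 13 mitotic genes (92.3%), 16 of 26 replication genes (61.5%) and 33.8% of all promoters. With the 50 bases after the start added, a window chosen after the first was counted, E2F motifs stood in 10 of 26 replication genes (38.5%) and still 1 of 13 mitotic genes, and CHR motifs in 9 of 13 mitotic genes (69.2%). The shares of all 300-base promoters with these motifs were 2.26% and 17.9%. A match is a description of the letters and not a bound site.

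**Figure D1:**
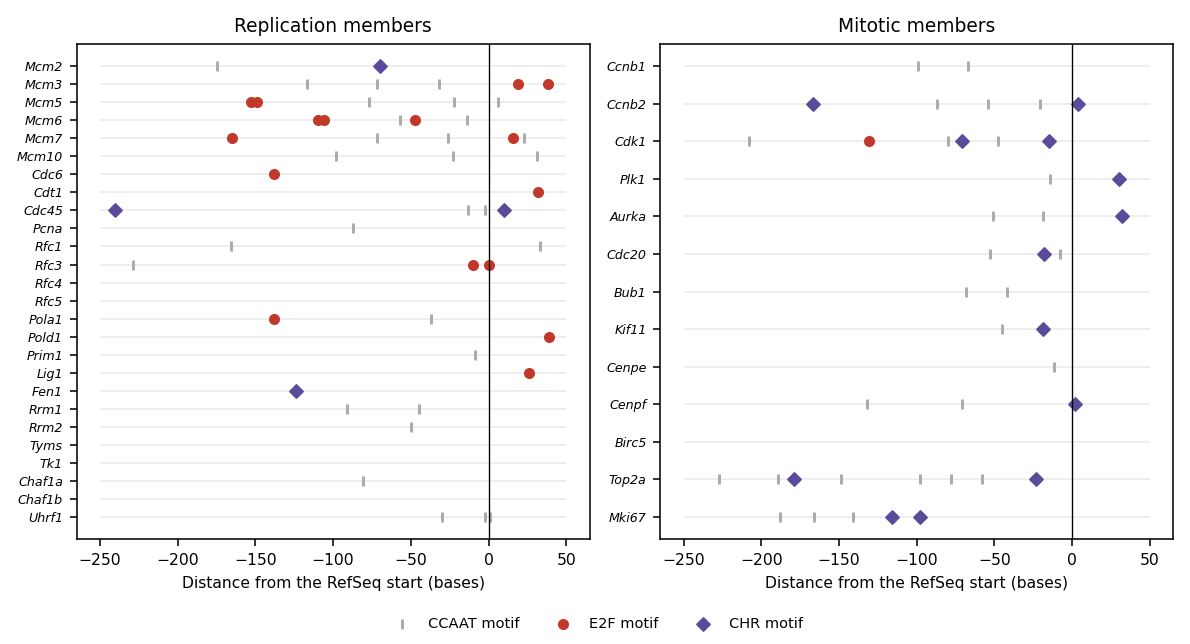
Positions of E2F (red circles), CHR (purple diamonds) and CCAAT (grey ticks) matches from 250 bases before to 50 bases after the RefSeq start, 1 line per gene, for 26 replication genes (left) and 13 mitotic genes (right). Of the mitotic genes only Cdk1 has an E2F match, and 9 of the 13 mitotic genes carry a CHR match.

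Libraries were compared on TMM-scaled counts divided by library size (CPM), and levels of different genes on TPM, which divides by transcript length. The median TPM of all genes tested was 5.25, 5.39 and 3.77 in replicates 1, 2 and 3, so TPM is not used to order the libraries. Annotated genes held 17328240 to 20923982 expected counts per library, and a count of 0 allows up to 3 counts, which came to 0.143 to 0.173 CPM. All 10 macrophage markers were measured in every library, with summed levels of 6347, 7400 and 9714 CPM in replicates 1, 2 and 3. None was 2-fold higher in replicate 1, but they were mixed. In replicate 1, 5 were lowest, against 34.7% of all 15874 genes, among them Mertk with 228, 455 and 453 CPM. Only Itgam was highest there, with 462, 221 and 267 CPM, against 36.6% of all genes. In replicate 3, 8 of the 10 were highest, against 31.9% of all genes. Among markers of progenitors (summed 17.8, 16 and 15.5 CPM), Cd34 had 0.960, 0.283 and 0.156 CPM, Myb 1.59, 0.622 and 0.623 CPM and Kit 1.92, 3.56 and 5.66 CPM, while Elane had 1 count in every library. Neutrophil markers summed to 14.2, 14.6 and 15.7 CPM with Ly6g at 0, lymphoid markers to 0.657, 0.622 and 0.415 CPM with Cd3e at 0, and fibroblast markers to 1.67, 1.36 and 0.623 CPM with Pdgfra and Lum at 0. The erythroid sum of 910, 1107 and 1118 CPM was nearly all Tfrc, which macrophages also express, with Hba-a1 at 0, 0 and 0.0721 CPM. The phiX spike-in took 1.24%, 0.371% and 0.0640% of counts, so it too was highest in replicate 1, and the part of phiX, of input and of cell makeup in the results below was not tested.

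Replicate 1 held more RNA of these genes than the other libraries. Of the 51 genes, 48 were highest there, against 36.6% of all genes tested, although Rfc2 was level with replicate 3 (56.0 CPM in both). Rfc1, Ccnb2 and Cdc20 were highest in replicate 3, as 31.9% of all genes were. Of the 51, Rfc1 was the only one lowest in replicate 1, as 34.7% of all genes were. The 51 genes together had 1743 CPM in replicate 1, 563 CPM in replicate 2 and 654 CPM in replicate 3. In replicate 1, 34 of the 51 genes exceeded both other libraries by 2-fold or more, against 4.86% of all genes tested (771 of 15874). None of the 51 was 2-fold above both others in replicate 2 or in replicate 3, where 0.857% and 1.54% of all genes were. As 1 group of 3 libraries allows no test between libraries, these counts describe the libraries, and in bulk RNA fewer cells in cycle cannot be told apart from less RNA per cell.

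**Figure D2:**
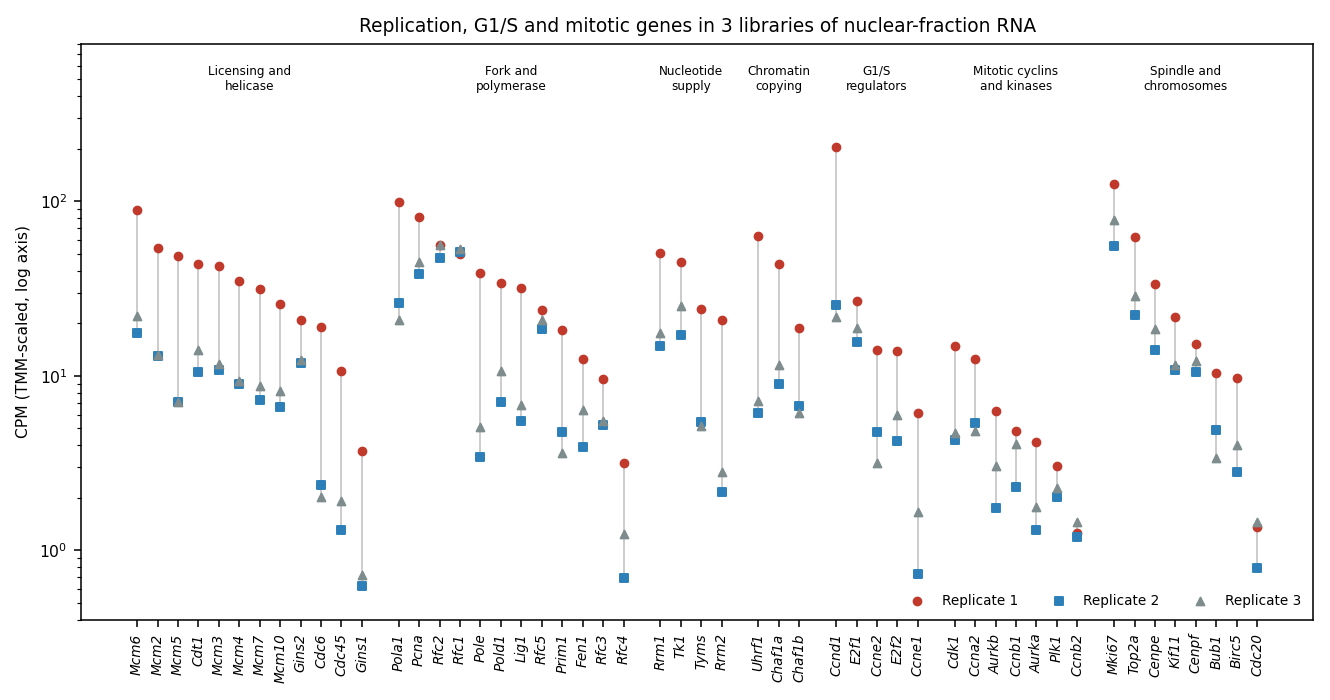
TMM-scaled CPM (log axis) of the 51 genes in replicate 1 (red circles), replicate 2 (blue squares) and replicate 3 (grey triangles), grouped by role and joined by a line per gene. Replicate 1 is the highest point in 48 genes, and the points nearly coincide for Rfc1, Rfc2 and Ccnb2.

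Among the licensing and helicase genes, 11 of 12 were at least 2-fold higher in replicate 1 than in both others, and the median difference from their mean was log2 2.01. Mcm6, a subunit of the helicase ring and the highest of the role per length at 12.3 ± 11.9 TPM (SD, n = 3), had 89.2, 17.7 and 22 CPM in replicates 1, 2 and 3. That is 4.47-fold (4.10 to 4.88) the other libraries together, where the bracket here and below is a 95% exact binomial interval that covers counting error only. Replicate 1 lay far above, and replicates 2 and 3 were near each other. The other ring subunits Mcm2, Mcm3, Mcm4, Mcm5 and Mcm7 had 31.7 to 54.1 CPM in replicate 1 and 7.06 to 13.2 CPM elsewhere. Mcm5 differed most among them, at 6.88-fold (5.99 to 7.92), and Mcm3 least, at 3.76-fold (3.34 to 4.24).

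Cdc6, the loader of the ring, differed most in this role, at 19.1, 2.38 and 2.02 CPM or 8.71-fold (6.83 to 11.2). Its partner Cdt1 had 44.0, 10.5 and 14.1 CPM, and Mcm10, which helps to start the helicase, had 26.0, 6.68 and 8.15 CPM. For both, the value of replicate 1 lay above those of the other libraries. Cdc45, which joins the ring to make the active helicase, had 10.6, 1.30 and 1.92 CPM, or 6.53-fold (4.88 to 8.85). Gins1, a subunit of the GINS complex of that helicase and the lowest of the role per length at 1.5 ± 1.65 TPM, had 3.74, 0.622 and 0.726 CPM from 74, 11 and 14 counts. Gins2, another GINS subunit, differed least, at 20.9, 11.9 and 12.3 CPM or 1.73-fold (1.51 to 1.98), although the second quantification put it at log2 1.59 and not 0.79. It shares 67.3% of its exon bases with Gse1 on the opposite strand, and the strand used in counting is not given in the sources used here, so reads of the pair cannot be told apart.

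The genes of the fork were divided, with 6 of 12 at least 2-fold higher in replicate 1 and a median of log2 1.5. Catalytic subunits of the polymerases were among the highest. Pole, the catalytic subunit of polymerase epsilon, which copies the leading strand, had 39.0, 3.45 and 5.09 CPM, or 9.07-fold (7.64 to 10.8). Pola1, the catalytic subunit of polymerase alpha, had 98.7, 26.3 and 20.9 CPM, and Pold1, that of polymerase delta, had 33.9, 7.07 and 10.7 CPM. Each of these catalytic subunits lay highest in replicate 1 by a wide margin. Prim1, the primase subunit that starts each strand, had 18.2, 4.75 and 3.63 CPM. Lig1, the ligase that joins Okazaki fragments, had 32.1, 5.54 and 6.85 CPM. Replicate 1 stood above both others in all of these 5, and both other libraries lay far below it. Fen1, which trims the ends of Okazaki fragments, had 12.6, 3.91 and 6.38 CPM, and 78.8% of its exon bases overlap Gm10143 on the opposite strand.

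The clamp and its loader subunits other than Rfc4 differed less than the other fork genes. Pcna, the sliding clamp and the most abundant of the 51 genes per length, had 59.5, 28.6 and 26.6 TPM in replicates 1, 2 and 3, and on the CPM scale it was 1.94-fold (1.81 to 2.08). Rfc1, the large subunit of the clamp loader, had 49.7, 51.1 and 53.2 CPM and was highest in replicate 3. Every other replication gene was highest in replicate 1, but Rfc2 only by log2 0.0056. Rfc2 had 56.0, 47.5 and 56.0 CPM and Rfc5 23.8, 18.5 and 21 CPM, so that these 3 loader subunits had ratios of 0.952, 1.08 and 1.2. Rfc3 had 9.65, 5.21 and 5.55 CPM, and Rfc4, the lowest replication gene per length at 1.32 ± 1.09 TPM, had 3.18, 0.691 and 1.25 CPM, or 3.27-fold (2.13 to 5.06) from 63, 12.2 and 24 counts. The 5 subunits of the loader thus spread from level to over 3-fold within the same libraries. Only Rfc4 formed the upper end, and the second quantification put it at log2 1.07 and not 1.68. Scaling by total counts moved the median of all genes by log2 0.14 in replicate 1, and with it Rfc1 from log2 -0.07 to 0.07, while in the second quantification Rfc2 was at log2 -0.01, so no direction is given for either. Rfc2, Rfc4 and Rfc5 overlap Lat2, Eif4a2 and Wsb2 on the opposite strand over 15.1%, 12.7% and 10.7% of their exon bases.

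Among the 4 genes of nucleotide supply, 3 were at least 2-fold higher in replicate 1. Rrm2, the regulated subunit of ribonucleotide reductase, had 20.9, 2.15 and 2.80 CPM, or 8.38-fold (6.67 to 10.6). Its partner Rrm1 had 50.4, 14.8 and 17.6 CPM, or 3.10-fold (2.79 to 3.43). Per length Rrm2 was the scarcer of the pair in every library, at 11.5, 1.58 and 1.11 TPM against 16.4, 6.05 and 3.88 TPM. Tyms, which makes thymidylate and is the lowest of the role at 3.61 ± 3.13 TPM, had 24.2, 5.43 and 5.19 CPM. Tk1, which salvages thymidine, was the highest of the role at 20.1 ± 11.2 TPM and differed least, with 45.0, 17.1 and 25.3 CPM or 2.10-fold (1.91 to 2.32).

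All 3 genes that rebuild chromatin behind the fork were at least 2-fold higher in replicate 1. Uhrf1, which carries DNA methylation over to the new strand and lies at chr17:56303321-56323486 on the plus strand (mm10), showed the largest difference of the 51 genes. Its level was 19.4, 1.98 and 1.37 TPM, and its 63.4, 6.11 and 7.16 CPM made it 9.53-fold (8.30 to 11.0), 20th by log2 difference among the 15874 genes. Chaf1a and Chaf1b, subunits of the chromatin assembly factor that puts histones on new DNA, had 43.5, 9.02 and 11.5 CPM and 18.9, 6.73 and 6.12 CPM. The replicate 1 values lay clear of the others for all 3 genes. Chaf1a overlaps Ubxn6 on the opposite strand over 52.5% of its exon bases.

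The 5 regulators of S phase entry summed to 266, 50.9 and 51.4 CPM in replicates 1, 2 and 3, and 4 of them were at least 2-fold higher in replicate 1. The highest of them on this scale was Ccnd1, cyclin D1, the partner of Cdk4 and Cdk6, at chr7:144929931-144939925 on the minus strand. It had 48.8, 7.80 and 3.83 TPM and 205, 25.6 and 21.8 CPM, or 8.70-fold (8.08 to 9.37), and 23.4% of its exon bases overlap LTO1 on the opposite strand. The S phase cyclins were low: Ccne1 had 6.16, 0.736 and 1.66 CPM and Ccne2, which overlaps Ints8 over 17.4% of its exon bases, 14.1, 4.76 and 3.17 CPM. Ccne1 was the only one of the 51 genes over 2-fold apart between replicates 3 and 2 (2.09-fold). E2f1, an activating E2F factor, differed least at 27.0, 15.6 and 18.9 CPM, or 1.56-fold (1.39 to 1.75). E2f2, another activating E2F and the lowest of the role at 1.33 ± 0.930 TPM, had 13.8, 4.24 and 5.97 CPM. Both E2F genes differed less between libraries than the median replication gene.

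The mitotic genes differed less and were more mixed, with 7 of 15 at least 2-fold higher in replicate 1 and 13 of 15 highest there. Among cyclins and kinases, Cdk1, the kinase that drives entry into mitosis, was the highest at 4.80 ± 3.70 TPM and had 14.8, 4.30 and 4.72 CPM, or 3.29-fold (2.71 to 4.0). Ccna2, cyclin A2, which acts with Cdk1 and Cdk2 from S phase on, had 12.6, 5.36 and 4.82 CPM, and it overlaps Exosc9 over 12.5% of its exon bases. The B cyclins, the partners of Cdk1 in mitosis, differed less. Ccnb1 had 4.85, 2.32 and 4.10 CPM, with replicate 3 close to replicate 1. Ccnb2 had 1.26, 1.19 and 1.45 CPM from 25, 21 and 28 counts, or 0.952-fold (0.563 to 1.57), an interval that reaches from well below to well above level. Scaled by total counts, Ccnb2 lay at log2 0.08 and not -0.05. The mitotic kinases Aurka and Aurkb had 4.19, 1.30 and 1.76 CPM and 6.31, 1.75 and 3.06 CPM, while Plk1 had 3.03, 2.04 and 2.28 CPM, or 1.40-fold (0.984 to 1.98).

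Among genes of the spindle and of mitotic chromosomes, 3 of 8 were at least 2-fold higher in replicate 1. Top2a, the topoisomerase that untangles sister chromatids, was the most abundant mitotic gene per length, with 16.9, 5.53 and 5.32 TPM and 62.2, 22.5 and 28.7 CPM. Mki67, the proliferation marker that coats mitotic chromosomes, had 125, 55.7 and 78.1 CPM, or 1.86-fold (1.76 to 1.97). On the CPM scale replicate 3 stood between the others for both. Birc5, survivin of the chromosomal passenger complex, differed most in this role at 9.75, 2.83 and 4.0 CPM, or 2.84-fold (2.26 to 3.58). In the second quantification its difference was only log2 0.59, and Bub1 (1.36) and Top2a (1.34) stood above it. Bub1, a kinase of the spindle checkpoint, had 10.4, 4.92 and 3.37 CPM, or 2.52-fold (2.03 to 3.13).

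The motor genes and kinetochore genes lay nearer the 2-fold line. Kif11, the motor that separates spindle poles, had 21.8, 10.8 and 11.5 CPM, and Cenpe, the kinetochore motor, 33.5, 14.0 and 18.5 CPM. Cenpf, a large kinetochore protein, had 15.3, 10.5 and 12.2 CPM. Cdc20, the activator of the anaphase-promoting complex, differed least and was the lowest of all 51 genes at 0.563 ± 0.127 TPM, with 1.36, 0.792 and 1.45 CPM from 27, 14 and 28 counts. Its ratio of 1.2-fold (0.711 to 1.99) also has level values inside the interval, as have those of Ccnb2 and Plk1. From counting error alone, the direction of these genes in replicate 1 was not detectable at this depth. The intervals hold no spread between replicates, so an interval clear of level in another gene is not a test.

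**Figure D3:**
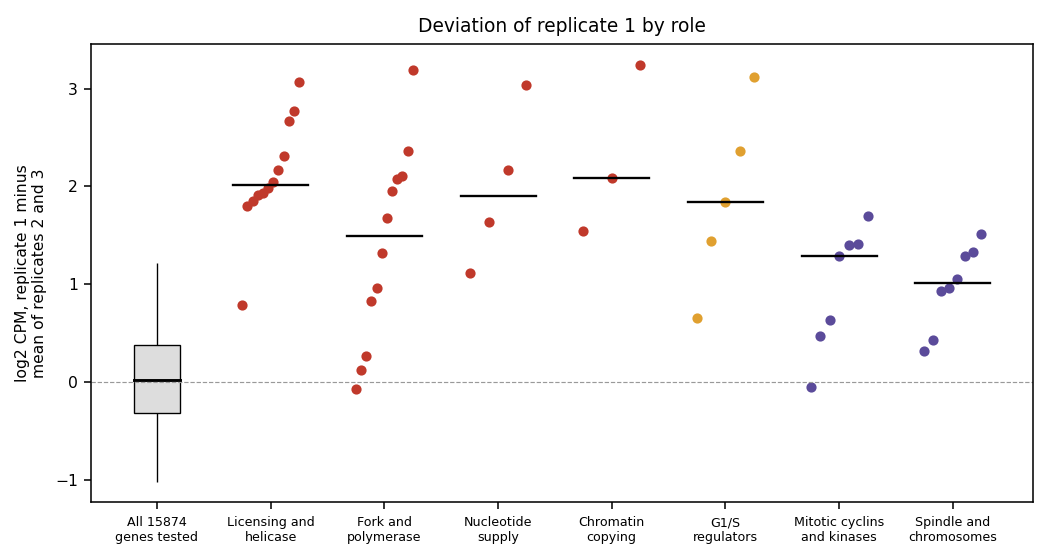
Difference of replicate 1 from the mean of replicates 2 and 3 in log2 CPM, 1 point per gene, by role, with the median as a bar and a box (quartiles, whiskers to 5th and 95th percentiles) for all 15874 genes tested. Licensing genes centre on 2.01 and spindle genes on 1.01, against 0.02 for all genes.

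Set against each other, the 31 replication genes differed more between replicate 1 and the other libraries than the 15 mitotic genes, a contrast that the further lists below (median log2 1.11 and 1.21) and the comparison of replicates 2 and 3 do not show. The median difference of replicate 1 was log2 1.95 (3.88-fold) for the 31 replication genes and 1.05 (2.08-fold) for the 15 mitotic genes, against 0.02 for all genes tested. Summed CPM were 1150, 372 and 423 for replication and 327, 140 and 180 for mitosis in replicates 1, 2 and 3. The replication genes took 77.9% of the counts of both classes in replicate 1 (exact binomial 95% interval 77.4 to 78.4), 72.6% (71.7 to 73.5) in replicate 2 and 70.1% (69.3 to 71.0) in replicate 3. The mean was 73.5% ± 3.96 (SD, n = 3). The interval of replicate 1 lay above those of the other libraries, and the intervals of replicates 2 and 3 did not overlap either. Without replicate 1 the mean share was 71.4%. The mitotic list holds 4 genes that also act before mitosis, Ccna2, Cdk1, Top2a and Mki67, and their median difference was log2 1.29 against 0.96 for the other 11.

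Per length, too, the replication genes stood higher. Their median was 10.8, 2.87 and 2.35 TPM in replicates 1, 2 and 3, against 3.92, 1.49 and 1.41 TPM for the mitotic genes. Over all genes tested the median was 5.25, 5.39 and 3.77 TPM, so the classes are compared within each library. As a difference of medians of log2(TPM + 0.1), the gap was 1.44, 0.90 and 0.70, with a mean of 1.01 ± 0.38 (SD, n = 3), or 2.02-fold. It had the same direction in every library and was widest in replicate 1, and without that library it averaged log2 0.80. Only Pcna, Rfc2, Tk1, Ccnd1, Mcm6 and Rfc1 averaged over 10 TPM, and no mitotic gene did.

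**Figure D4:**
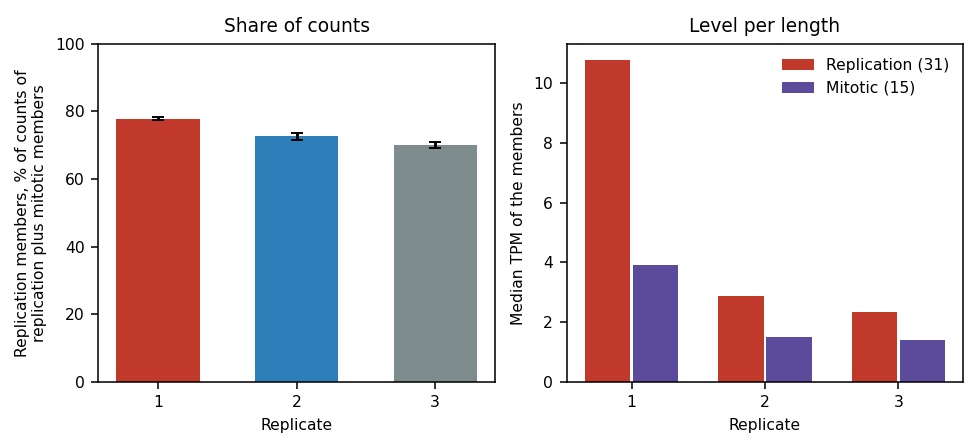
Left, counts of the 31 replication genes as a percentage of those of the replication and 15 mitotic genes, with exact binomial 95% intervals; right, median TPM of each class, both by replicate. The share is 77.9% in replicate 1 and 72.6% and 70.1% in the others, and the replication median is above the mitotic median in all 3 libraries.

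Without replicate 1, a smaller difference between the other libraries was seen. Of the 51 genes, 41 were higher in replicate 3 than in replicate 2 (80.4%), against 50.2% of 15690 genes tested on these libraries. The median was 1.19-fold over the 51 genes, 1.18-fold over replication genes and 1.28-fold over mitotic genes, so between these libraries the mitotic genes were not the flatter class. Cdc20 was 1.73-fold higher in replicate 3 than in replicate 2.

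E2F and CHR motifs did not sort the genes by how much they differed. The replication genes with an E2F motif in the 300-base promoter ranged over log2 0.83 to 3.07 (median 2.03, 10 genes) and those without over -0.07 to 3.24 (median 1.74, 16 genes). The mitotic genes with a CHR motif ranged over -0.05 to 1.70 (median 0.93, 9 genes) and the other 4 over 0.64 to 1.51 (median 1.19). The ranges overlap in both classes, and Uhrf1, whose stretch above holds no E2F match, is the gene that differed most.

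The listed replication and mitotic genes also differed in the kind of transcript to which counts were assigned. The annotation types some transcripts as retained intron, meaning that an intron stays in the RNA, and such RNA is often held in the nucleus. These transcripts took 21.3%, 28.2% and 29.0% of the counts of the 31 replication genes in replicates 1, 2 and 3, or 26.2% ± 4.21 (SD, n = 3). For the 15 mitotic genes the shares were 2.83%, 3.22% and 2.49%, or 2.85% ± 0.366, and for all annotated genes 11.1% ± 0.901. The difference between the classes was 23.3 points ± 4.25, larger than the spread between libraries. As a median per gene, over genes with such a transcript, it was 12.8 points. Top2a and Mki67, which hold most mitotic counts, have no transcript of this type, and over the genes that have one the shares were 27.3% ± 4.29 and 7.43% ± 0.606. Transcripts of this type were annotated for 28 replication, 2 G1/S and 10 mitotic genes. They took over 25% of counts on average in 12 replication genes and 1 mitotic gene, Ccnb1 (37.1% ± 5.18). The low mitotic share holds for the 15 listed genes only. Cenpa, a mitotic gene outside them, held 759, 5548 and 4477 counts on such transcripts in replicates 1, 2 and 3. All 15 together held 183, 79.9 and 86.4. Whether the further lists below differ in this share was not tested.

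Tk1 had 78.5% ± 2.67 of its counts on such transcripts, Gins2 66.4% ± 13.3, Rfc5 62.4% ± 6.28, Prim1 57.1% ± 12.5 and Rfc3 57.1% ± 1.31. Rfc4 was at 0%, and Mcm6, Pola1 and Uhrf1 were low, with 1.58% ± 0.706, 2.77% ± 0.456 and 3.15% ± 1.13. Without Gins2, Rfc2, Rfc5 and Tk1, which were picked after their shares were seen, the replication share was 16.3%, 16.7% and 15.6%, and the difference between the classes averaged 13.3 points. The overlap of Gins2, Rfc2 and Rfc5 with genes of the opposite strand, given above, touches these shares, and its part was not tested. Summed over the replication genes, retained-intron transcripts were 2.15-fold (2.06 to 2.24) above the other libraries in replicate 1. Their other transcripts were 3.18-fold (3.11 to 3.26) above. In the 15 mitotic genes both kinds were close, at 2.06-fold (1.66 to 2.55) and 2.03-fold (1.96 to 2.10). The gap in the replication sums was not seen per gene. Over the 28 replication genes with such a transcript, the median share was 21.9%, 19.7% and 18.7% in replicates 1, 2 and 3. The share was lowest in replicate 1 for 10 of them, in replicate 2 for 7 and in replicate 3 for 10.

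**Figure D5:**
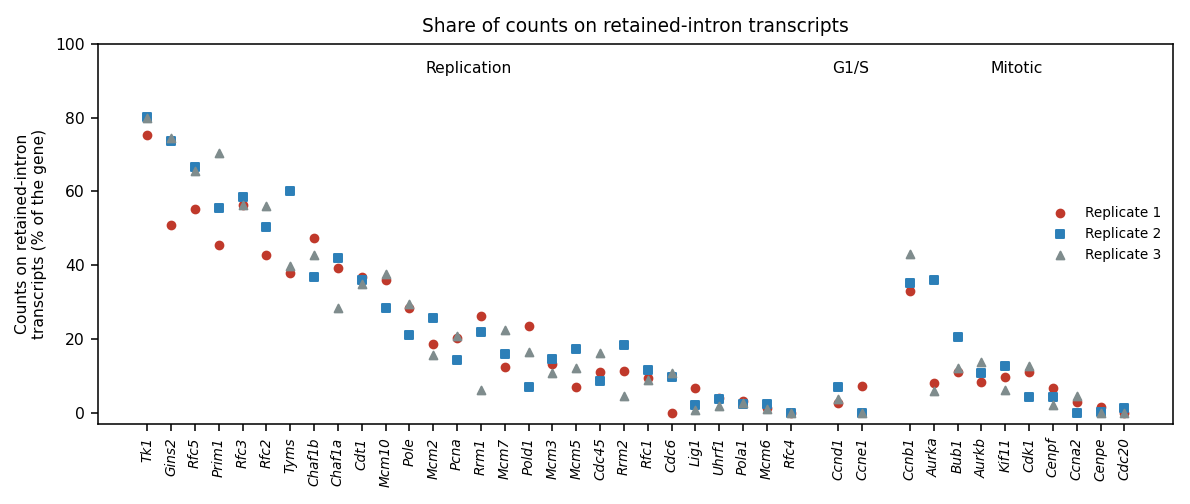
Share of each gene's expected counts on transcripts annotated as retained intron, in percent, for the genes with such a transcript, by class and replicate. Tk1 lies at 75.4 to 80.1% in every library, and all mitotic genes shown but Ccnb1 average under 25%.

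Other genes of these pathways were listed by function. Of 41 further replication genes with a count, 38 were highest in replicate 1, against 36.6% of all genes tested. At least 2-fold above both others were 20, against 4.86% of all genes, and the median of the 41 was log2 1.11. The most abundant per length were Orc3 and Orc4, subunits of the origin recognition complex, and the polymerase delta subunit Pold3, at 36.8 ± 8.91 TPM, 33.1 ± 11.6 TPM and 27.5 ± 7.20 TPM. None of these 3 stood out in replicate 1, with 53.0, 58.4 and 53.1 CPM, 59.2, 74.4 and 46.1 CPM and 52.1, 43.5 and 45.2 CPM. The largest differences were in Ung, the uracil glycosylase, with 5.66, 0.396 and 0.986 CPM, in the chromatin remodeler Hells with 45.0, 7.24 and 6.69 CPM, and in the fork protection gene Timeless with 29.6, 3.45 and 6.38 CPM.

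Of 49 further mitotic genes, 41 were highest in replicate 1, against 36.6% of all genes tested. At least 2-fold above both others were 19, against 4.86% of all genes, and the median of the 49 was log2 1.21. The kinetochore gene Spc24 had 2.53, 0.396 and 0.415 CPM and the kinase gene Melk 4.80, 1.30 and 1.19 CPM. The condensin gene Smc4 had 62.9, 56.6 and 64.6 CPM and Incenp, of the passenger complex, 49.1, 32.4 and 46.4 CPM, neither of them 2-fold apart between libraries. Cenpa, the histone variant of centromeres, went the other way, with 45.0, 337 and 267 CPM, or 6.68-fold lower in replicate 1 than in the others. It was the only one of the 49 at least 2-fold below both others there, as 3.23% of all genes were.

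Of 31 genes of cell cycle control, 22 were highest in replicate 1, with a median of log2 0.51. At least 2-fold above both others were 8, and 2 were at least 2-fold below both. Of all genes tested, 36.6% were highest there, 4.86% at least 2-fold above both others and 3.23% at least 2-fold below both. The repressor E2f7, itself an E2F factor, had 13.9, 2.60 and 2.44 CPM, and cyclin D2, Ccnd2, had 14.5, 2.89 and 2.75 CPM. The abundant kinase genes Cdk4 and Cdk6 had 56.3, 44.2 and 54.4 CPM and 327, 258 and 206 CPM, and Cdk4 overlaps Tspan31 on the opposite strand over 19.7% of its exon bases. The inhibitors of cyclin-dependent kinases went different ways. Cdkn2c, an inhibitor of Cdk4 and Cdk6 that like Cdkn2d is named here after its values were seen, had 9.65, 3.06 and 8.87 CPM, highest in replicate 1, and Cdkn2d 1.97, 1.02 and 2.96 CPM. Cdkn1a, p21, the most abundant of the list, had 210, 169 and 326 CPM, with replicate 3 the highest. Cdkn1c, p57, had 1.56, 16.4 and 9.24 CPM, or 8.07-fold lower in replicate 1. Cdkn1b, p27, named after its values were seen, had 35.2, 95.7 and 73.6 CPM, or 2.39-fold lower.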

How the data were processed

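Total RNA-seq of the nuclear fraction was analysed in 3 libraries of 1 group. The expected counts and TPM per gene and per transcript were made by the authors, per the file headers in the column format of RSEM, on mm10 with GENCODE M21. A second table deposited by the authors holds estimated counts and TPM per transcript, per the file headers in the column format of kallisto. For both programs the version is not given in the sources used here. The bounds of the deposited TPM credibility intervals count as a score here and were left out of every comparison. Rows that name no annotated gene (1.31%, 0.472% and 0.174% of counts in replicates 1, 2 and 3) were left out, and 86 gene IDs with no row in the annotation were not used here.

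After rounding the expected counts to integers and keeping genes that averaged at least 10, log2 CPM with a prior count of 2 was computed with edgeR 4.0.16 in R 4.3.3 (TMM factors 1.07, 1.02 and 0.921). DESeq2 1.42.0 size factors, total counts, other thresholds and filters, the second table, other member lists and leaving out libraries were alternatives. A library is 1 sample, so no test between libraries was run, and counts are read against all genes tested. Fold changes of single genes divide the CPM of replicate 1 by that of the others together.

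The members and lists were chosen with earlier results of these data known. In each role the members with the highest and lowest mean TPM and with the largest and smallest difference in replicate 1 were given in every library, and in each further list the 3 highest by TPM and the 3 largest differences. Other members are named for their role. Of the further symbols, 1 had no row. Promoters came from a RefSeq table of GRCm38.p6, 1 per gene, at the start nearest to that of the leading coding transcript.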

Additional observations from a re-analysis of the deposited data

How the results depend on the processing

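No paired analysis was possible because the labels give 1 group. Replication genes stood above mitotic genes in level and in the difference of replicate 1 in each alternative run. Near-level genes changed sign: Rfc1 and Ccnb2 under total counts and Rfc2 in the second quantification. Scaled by total counts, the median difference of replicate 1 was log2 2.09 for replication and 1.19 for mitotic genes, and by the second quantification 1.82 and 0.92. Without replicate 2 it was 1.84 and 0.91, with 7 mitotic genes and 1362 of all genes at least 2-fold higher. Without replicate 3 it was 2.05 and 1.17, with 11 and 1455. Mitotic genes above were 4 on the second set of values and 1 at 3-fold. All genes above were 1179 with no filter, 1654 at 1.5-fold and 275 at 3-fold. Without Ccna2, Cdk1, Top2a and Mki67, 4 mitotic genes were above, their median was log2 0.96 and the replication share of counts 88.6%. The retained-intron difference was 31.9 points as a share of TPM, 12.8 points as a median per gene and 13.3 points without Gins2, Rfc2, Rfc5 and Tk1, a setting chosen after seeing the data, as was the restriction to genes with such a transcript (19.8 points). Of the alternative values, 39 stayed close to the reported ones and 22 moved; the cause was not tested, except that fewer genes or libraries enter where some were left out. Values for replicate 1 could not be formed without replicate 1. On that second set, 47 of the 51 genes were highest in replicate 1. Tyms, Birc5 and Pole differed less there than in the first (log2 1.21, 0.59 and 2.29 against 2.17, 1.51 and 3.19). So did Rfc4 and Rrm1 (1.07 and 1.04 against 1.68 and 1.64), while Gins2 differed more (1.59 against 0.79). Depth limits Ccnb1, Ccnb2, Plk1, Aurka, Cdc20, Gins1 and Rfc4, at under 100 counts in every library.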

Other observations

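Of the 49 further mitotic genes, 4 were lowest in replicate 1, against 34.7% of all genes tested. They were Cenpa, the gene of the centromere histone, and, by less, Kif22, Pttg1 and Ube2c (0.754, 0.714 and 0.823 of the others). The interval of Ube2c (0.417 to 1.55) spans level. Cenpa averaged 69.0 TPM, more than any of the 51 genes, and had 890, 5956 and 5140 counts in replicates 1, 2 and 3. Transcripts annotated as retained intron took 85.3%, 93.1% and 87.1% of them, and the single transcript Cenpa-208 took 75.2%, 84.6% and 73.5%. Its coding transcripts held 94.9, 348 and 466 counts, so they too were lowest in replicate 1. For Cdkn1b all counts were on coding transcripts, and for Cdkn1c 88.7% or more were in every library, although the split among its coding transcripts differed, with Cdkn1c-202 at 0%, 73.2% and 15.9%.

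The promoter motifs of the further genes can be set beside those of the 51. In the 300-base promoters, CHR motifs stood in 29 of 42 further mitotic genes (69.0%), 4 of 32 further replication genes (12.5%) and 17.9% of all promoters. E2F motifs stood in 10 of 32 further replication genes (31.2%), 4 of 42 further mitotic genes (9.52%) and 2.26% of all promoters. Hells, among the largest differences in replicate 1, holds an E2F motif, as do E2f7 and Orc3, of which Orc3 was level. No E2F match was recorded for Ung and Timeless, also among those largest differences, though a missing promoter would look the same. Whether motif and difference go together in the further genes was not tested.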
